A study of Mus musculus and Homo sapiens with 90 samples.

Results

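The comparison described here set HepG2 cells given metabolites of an in vitro microbial community that had been treated with the antimicrobial cyclic peptide wLwKhShK against HepG2 cells given metabolites of the same kind of community treated with solvent. It rests on 4 RNA-seq libraries, 2 per group, chosen by their titles and column headers, out of 8 HepG2 RNA-seq libraries and 90 samples in the series. HepG2 is a human liver cancer cell line, labelled here as p53-WT, and every group was grown in high-glucose medium with serum and antibiotics. In the peptide group and the solvent control group, collected metabolites were mixed into the culture medium at 1:32 for 48 h. Another group of 2 libraries received metabolites of a community treated with WlWkHsHK, the control peptide called diast, at the same ratio and for the same time. The remaining 2 libraries, titled media and labelled as a media control of the same length, are called medium below. Their column headers read GAM, a term the labels do not explain. The dose of either peptide in the community and the identity of its members are not stated either.

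Metabolites made by gut microbes reach the liver through the portal vein, and liver cells respond to them through nuclear receptors, enzymes and changes in chromatin. Cyclic peptides that alternate mirror-image and natural residues can stack on bacterial membranes and disturb them, so treating a community with one can change which microbes live and what they release. Both peptide names have 8 letters. The letters are the same at all 8 positions when case is ignored, and case is exchanged at 7 of them, the exception being position 8 counted from the left. In peptide notation a lower-case letter commonly stands for the mirror-image (D) form of a residue, a convention that the labels leave unstated. Whether peptide carried over with the metabolites, or the altered community, acted on the cells cannot be told apart in this design.

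The tables give human genes by Ensembl identifier and do not pair them with names, so genes are described in groups defined by level and by response. Only 4 are given by identifier. For the same reason liver and other cell type markers were not checked, and copies of near-identical genes, whose estimated counts can be split unevenly, could not be picked out. The 8 libraries held 17019364 to 25594588 expected counts, with the peptide libraries the deepest at 25594588 and 21129823 and the solvent control libraries at 18044085 and 17019364. Levels are given in CPM, counts scaled to a common library total, after adjustment by TMM (trimmed mean of M values) factors, which lay between 0.989 and 1.03. The root-mean-square difference in log2 level over genes was 0.476 between the peptide replicates and 0.456 between the solvent control replicates. Between a peptide and a solvent control library it was 0.76 to 0.791, and between a peptide and a diast library 0.577 to 0.607. Replicates differed by more than counting error: the chi-square of their counts over genes, divided by its degrees of freedom, was 12.3 for the peptide pair and 4.47 for the solvent control pair. Nothing in the labels says that replicates came from separate cultures, so the spread behind each p-value is that of these libraries and may be technical.

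Cells given metabolites of the peptide-treated community differed from the solvent control in the level of many genes, and the large differences were mostly falls. Of 15023 genes tested, 3061 rose (20.4%) and 3064 fell (20.4%) against the solvent control, 40.8% in all (edgeR quasi-likelihood test, Benjamini-Hochberg adjusted p under 0.05). Of the called genes that changed less than 2-fold, 2935 rose and 2069 fell. With scaling by library size alone, 2632 genes rose and 3351 fell in all. The median size among the genes that rose was 0.40 on the log2 scale, and among those that fell it was 0.64. With the added demand of at least a 2-fold difference, 126 genes rose (0.839% of those tested) and 995 fell (6.62%), 7.46% together, so that rises made up 11.2% of the larger changes. The median over all tested genes was -0.0024, and 645 genes rose by at least 1.5-fold against 1665 that fell by that much. The peptide and solvent control libraries did not overlap for 70.1% of all tested genes, 5291 lower and 5244 higher with the peptide, so a gap between pairs of libraries is common in these data. It was present in 994 of the 995 genes and in all 126, which were chosen for that difference. In bulk RNA, fewer cells carrying a transcript and less transcript in each cell cannot be told apart.

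The larger falls lay mostly among genes of low level, as did a smaller share of the larger rises. Of the 995 genes that fell at least 2-fold, 578 were under 5 CPM in the solvent control, and 22 had no count in either peptide library, so their fitted difference has no fixed size. Of the 126 that rose at least 2-fold, 52 were under 5 CPM in the peptide group and 4 had no count in either solvent control library. Of 2027 tested genes with a mean under 1 CPM over the 8 libraries, 14.9% fell and 1.09% rose at least 2-fold. At 1 to 3 CPM it was 17.8% and 1.81% of 1600 genes. At 30 to 100 CPM it was 1.53% and 0.351% of 3983, and at 300 CPM or more 2.1% and 0.763% of 524. Over all tested genes it was 6.62% and 0.839%. A filter that required a mean of 5 CPM or more over the 4 libraries left 53 rises and 360 falls of at least 2-fold. Rises then made up 12.8% of these changes.

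**Figure D1:**
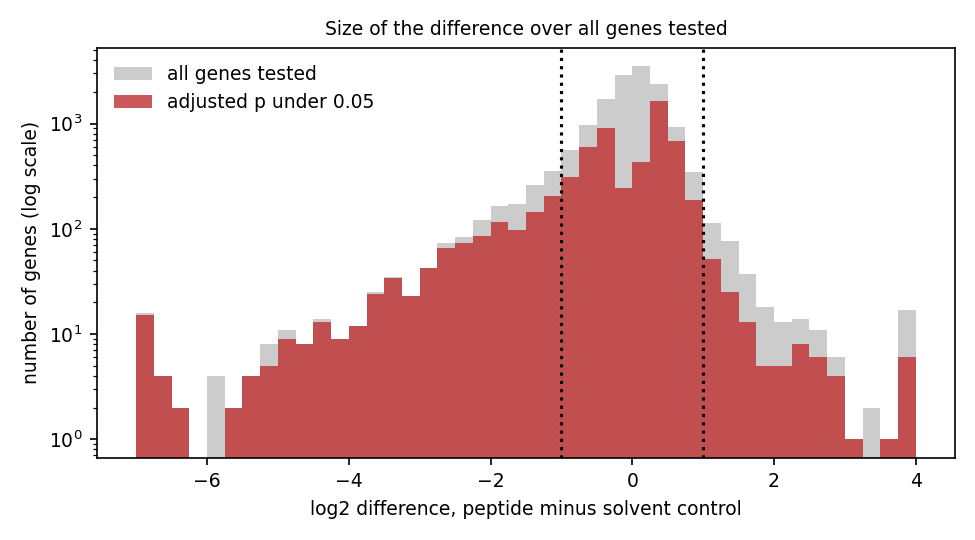
Histogram of the log2 difference of peptide minus solvent control over 15023 genes, with the number of genes on a log scale. Grey bars hold all genes tested, red bars those with an adjusted p under 0.05, dotted lines mark a 2-fold difference, and the outermost bars also hold 11 genes below -7 and 17 at or above 4. The left tail holds 995 called genes past the dotted line and the right tail 126.

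The steepest rises among genes with a mean of at least 5 CPM came from a pair that were not raised by the solvent control metabolites. ENSG00000204388.6 stood at 282 and 314 CPM in the peptide libraries and at 49.7 and 48.0 CPM in the solvent control libraries. The groups were far apart, and the level rose by 2.61 ± 0.08 on the log2 scale (SE, edgeR adjusted p 8.46e-15), or 6.09-fold. The diast libraries held 123 and 118 CPM of it, between the other groups, and the medium libraries 48.0 and 57.9 CPM. The solvent control did not differ from medium by a detectable amount for this gene (log2 difference -0.11, 95% interval -0.29 to 0.06, edgeR adjusted p 0.28).

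ENSG00000109971.13 was among the more abundant transcripts, at 1680 and 1550 CPM with the peptide and 269 and 264 CPM with the solvent control. It rose by 2.60 ± 0.06 (SE, edgeR adjusted p 2.01e-16), or 6.06-fold. Its diast libraries were again intermediate, at 780 and 792 CPM, and its medium libraries held 337 and 314 CPM. Solvent control metabolites left it slightly lower than medium, by -0.29 ± 0.06 on the log2 scale (SE, edgeR adjusted p 0.00045). For both genes the peptide group was therefore the highest of the 4, and its level was above medium by 5.63-fold for the first and 4.95-fold for the second.

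The 2 steepest falls among genes with a mean of at least 5 CPM were of genes that were nearly silent in medium. ENSG00000162543.5 stood at 10.4 and 11.9 CPM in the solvent control libraries and at 0.315 and 0.477 CPM in the peptide libraries, which correspond to 8 and 10 counts. It fell by 4.81 ± 0.37 on the log2 scale (SE, edgeR adjusted p 3.18e-09), or 28.1-fold. The diast libraries held 3.24 and 3.59 CPM, and the medium libraries 0 and 4 counts. ENSG00000104833.11 stood at 11.0 and 9.64 CPM with the solvent control and at 0.473 and 0.429 CPM with the peptide, or 12 and 9 counts. It fell by 4.49 ± 0.29 (SE, edgeR adjusted p 2.96e-10), or 22.5-fold. Its diast libraries were at 5.46 and 5.19 CPM, and its medium libraries held 1 and 2 counts. In both genes the order of the group means was solvent control, diast, peptide and medium. The difference between peptide and medium rests on a handful of counts. Its adjusted p for ENSG00000162543.5 was 0.0433 with edgeR, but 0.419 without medium replicate 1, 0.18 without peptide replicate 2 and 0.0566 with DESeq2. For ENSG00000104833.11 it was 0.00297, and 0.0523 without medium replicate 1.

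**Figure D2:**
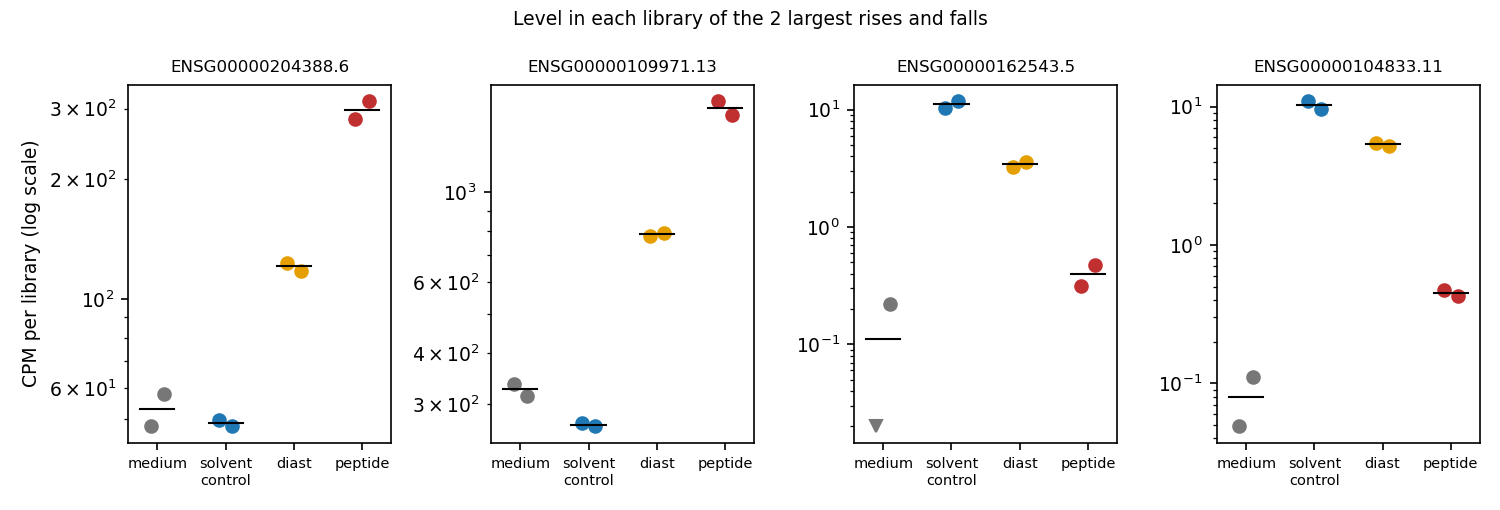
CPM of 4 genes in each of the 8 libraries, each panel with its own log axis. Points are libraries, black lines are the mean of 2 libraries, and the triangle marks a medium library with 0 counts, drawn at the foot of the axis. The peptide group is highest for the left pair of genes and lies below diast for the right pair, with diast between solvent control and peptide in all 4 panels.

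These 4 genes head wider sets of 12 in each direction. The 12 largest rises among 2961 candidates ran from 1.5 to 2.61 on the log2 scale, and the 12 largest falls among 2300 candidates from -3.10 to -4.81. For the 12 rises the median of the group means was 13.8 CPM in the solvent control, 28.8 in diast, 42.0 in the peptide group and 32.3 in medium. None of the 12 was under 1 CPM in medium. For the 12 falls the medians were 16.1 CPM in the solvent control, 4.76 in diast, 1.51 in the peptide group and 1.47 in medium, and 5 of the 12 were under 1 CPM in medium. In every gene of both sets the diast mean lay between the solvent control and the peptide mean. Against diast directly, the peptide level was higher for 11 of the 12 rises and lower for 12 of the 12 falls (edgeR adjusted p under 0.05). Over all 15023 tested genes, 8.56% were higher and 9.19% lower. Against medium, the peptide level was higher for 9 and lower for 2 of the 12 rises (edgeR adjusted p under 0.05). For the 12 falls it was higher for 5 and lower for 3, beside 28.3% higher and 24.5% lower over all tested genes. The medium mean was below the solvent control mean in 6 of the 12 rises and 12 of the 12 falls. Both sets were chosen for their difference in peptide level, so the place of diast and the counts against diast and medium are a description.

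Detection was counted as a further description, with CPM scaled by library total without the TMM factors. Those factors were 1.03 and 1.01 for the solvent control and 0.992 and 0.993 for the peptide. At a level of 1 CPM in both libraries of a group, 12867 genes were present with the solvent control and 12430 with the peptide. That level is scaled to the library total. Genes with any count numbered 20310 and 20391 in the solvent control libraries. In the peptide libraries, which were deeper, they numbered 19937 and 20117. Present in both solvent control libraries and in neither peptide library were 394 genes, of which 289 were called lower. The reverse held for 64 genes, of which 19 were called higher. These genes were chosen by their levels in the compared libraries, where 20.4% of all tested genes were called in each direction, so the calls are no separate support. Among the 394 genes, 292 were also under 1 CPM in both medium libraries and 50 reached it in both. In diast, 143 of the 394 still reached 1 CPM in both libraries and 149 reached it in neither.

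Genes at the other end of the range mostly differed by small amounts, although many were called higher. Of 88 genes with a mean of at least 1000 CPM over the 8 libraries, 40 rose and 9 fell, beside 20.4% in each direction over all genes tested, with a median log2 difference of 0.13 and a range of -1.41 to 0.98. The lowest value, a fall, was the only one of the 88 called at 2-fold or more. The single most abundant gene took 1.41% and 1.95% of counts in the peptide libraries and 2.23% and 2.64% in the solvent control libraries. The 100 most abundant genes took 22.5% and 23.9% against 22.6% and 23.4%.

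The level of a gene in medium comes from libraries outside the comparison, so it was used to sort the genes. This was done over the 14339 genes that passed the expression filter on the medium and diast libraries alone, of which 21.3% rose and 20.3% fell, and 0.795% rose and 5.82% fell by at least 2-fold. Of 351 genes under 0.3 CPM in medium, 3 rose and 148 (42.2%) fell at least 2-fold with the peptide. These genes passed the filter only through their level with diast, so this stratum is limited to genes that are higher with metabolites, and its share is not comparable with the others. Among 1361 genes at 0.3 to 1 CPM in medium, 15.4% fell at least 2-fold, and among 1543 genes at 1 to 3 CPM it was 12.2%. The share was 1.22% among 3838 genes at 30 to 100 CPM, and 2.80% among 536 genes at 300 CPM or more. Calls of a rise of any size ran the other way, from 0.808% of genes at 0.3 to 1 CPM to 38.4% of those at 300 CPM or more. Genes in the lower part of the 0.3 to 1 CPM stratum may also have passed the filter only through diast. The shares of that stratum therefore carry the same limit in part. A call at low level needs a larger difference than a call at high level, and that difference in precision was not separated from the level here.

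**Figure D3:**
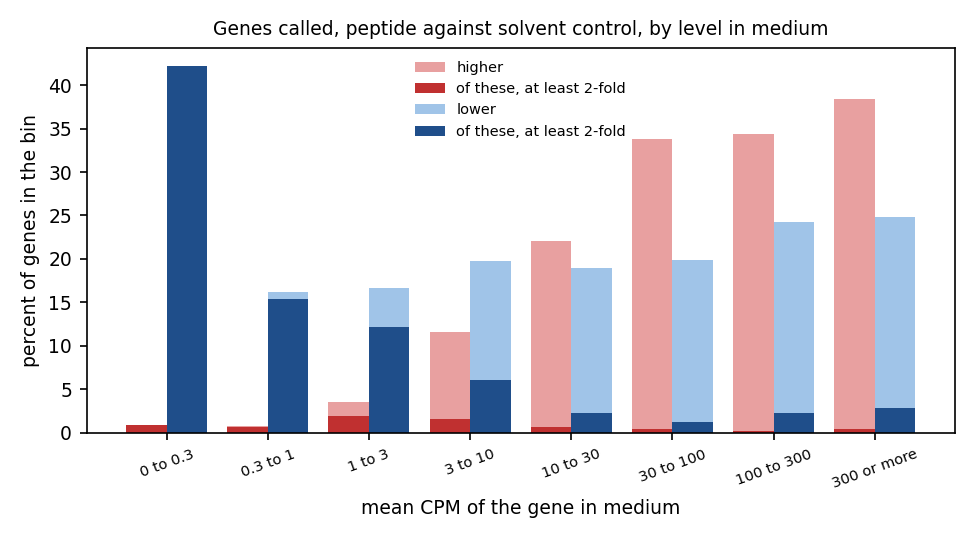
Percent of genes called higher (red) or lower (blue) with the peptide against the solvent control, by mean CPM in medium, over 14339 genes. The dark part of each bar is the share with at least a 2-fold difference. The dark blue share is 15.4% at 0.3 to 1 CPM and 1.22% at 30 to 100 CPM, while the red bars reach 38.4% in the highest stratum. Genes of the lowest stratum (42.2%) passed the filter only through their level with diast, as may part of those at 0.3 to 1 CPM.

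Genes raised by metabolites of the diast-treated community were called lower with the peptide at a higher share than all genes. To avoid using the compared libraries for the choice, genes were grouped by diast against medium in a fit of those 4 libraries alone. Of 1383 genes raised at least 2-fold by diast metabolites over medium, 551 (39.8%) fell and 181 (13.1%) rose with the peptide against the solvent control, beside 20.3% and 21.3% over all 14339 genes. At least 2-fold, 367 fell (26.5%, beside 5.82% of all) and 26 rose (1.88%, beside 0.795%). This group was 1383 of 14339 genes and held 44.0% of the 2-fold falls, against 551 of the 2904 falls of any size. Its median log2 difference was -0.41 with quartiles of -1.22 and 0.11, against 0.0093 over all 14339 genes. The median level of these genes was 6.60 and 6.68 CPM in the solvent control libraries, 4.10 and 4.10 CPM in the peptide libraries, 5.71 and 5.53 CPM in the diast libraries and 1.61 and 1.62 CPM in the medium libraries. The peptide libraries were below both solvent control libraries and above both medium libraries. The lower quartile of these genes was 0.39 CPM in both medium libraries, so part of the group passed the filter only through its level with diast. The shares of 26.5% and 44.0% include such genes. With the filter at a mean of 5 CPM, 657 genes were raised by diast and 74 of them (11.3%) fell at least 2-fold, beside 3.38% of all genes that passed it.

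The share was larger in strata of larger response to diast metabolites. Of 847 genes raised 2- to 4-fold, 14.2% fell at least 2-fold with the peptide, with a median log2 difference of -0.14. Of 329 raised 4- to 8-fold, 35.3% fell, with a median of -0.84. Of 207 raised at least 8-fold, 131 (63.3%) fell and 3 rose at least 2-fold, with a median of -1.81. Below 0 lay 190 of the 207, beside 49.1% of all 14339 genes. The median level of these 207 genes was 0.0974 and 0.111 CPM in medium, 2.49 and 2.56 CPM in the solvent control and 0.631 and 0.763 CPM in the peptide group. Of these 207 genes 189 were under 1 CPM in medium, and most of the 207 passed the filter only through their level with diast. With genes of at least 1 CPM in medium alone, 10.8% of 692, 26.7% of 116 and 61.1% of 18 genes fell at least 2-fold. The last share rests on few genes. Of all genes at 1 to 3 CPM in medium, 12.2% fell at least 2-fold, and of those at 3 to 10 CPM, 6.06%. In each higher stratum of medium level that share was at most 2.80%. The peptide medians of the 207 genes stood between those of medium and the solvent control for these strongest responders.

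The other groups by response to diast metabolites had smaller median differences. The 2581 genes raised by less than 2-fold had a median of 0.11, with 35.5% called higher and 16.3% lower. The 6611 genes with no call had a median of 0.03, and 4.07% of them fell at least 2-fold. Of the 601 genes lowered at least 2-fold by diast, 38.1% fell and 9.48% rose with the peptide against the solvent control, with a median of -0.24. At least 2-fold, 82 of the 601 fell (13.6%, beside 5.82% of all 14339) and 12 rose (2%, beside 0.795%). A share of falls above that of all genes was thus not particular to genes raised by diast.

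**Figure D4:**
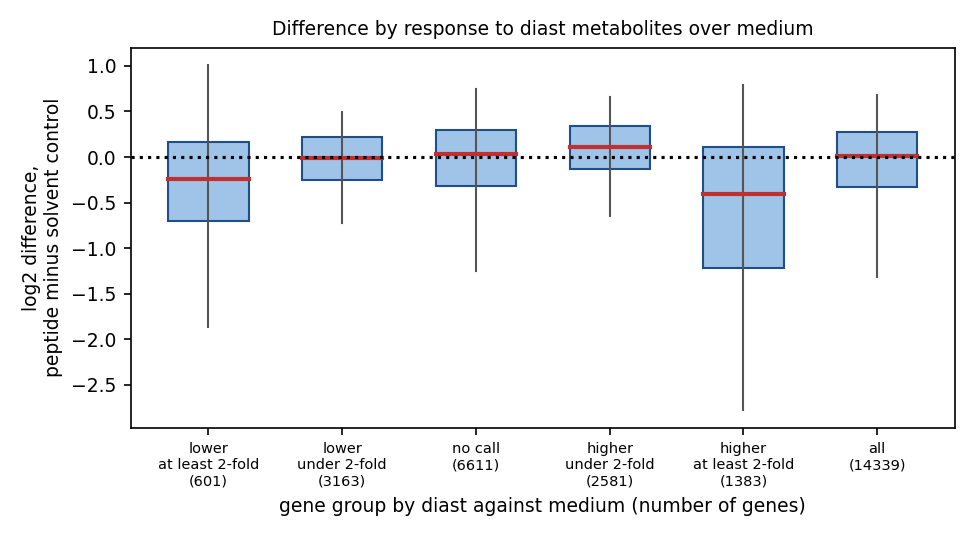
Log2 difference of peptide minus solvent control by how a gene responded to diast metabolites over medium, with the number of genes in each group. Red lines are medians, boxes the quartiles and thin lines the 5th to 95th percentile. The outer groups have the lowest medians, at -0.24 for genes lowered at least 2-fold and -0.41 for genes raised at least 2-fold.

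**Figure D5:**
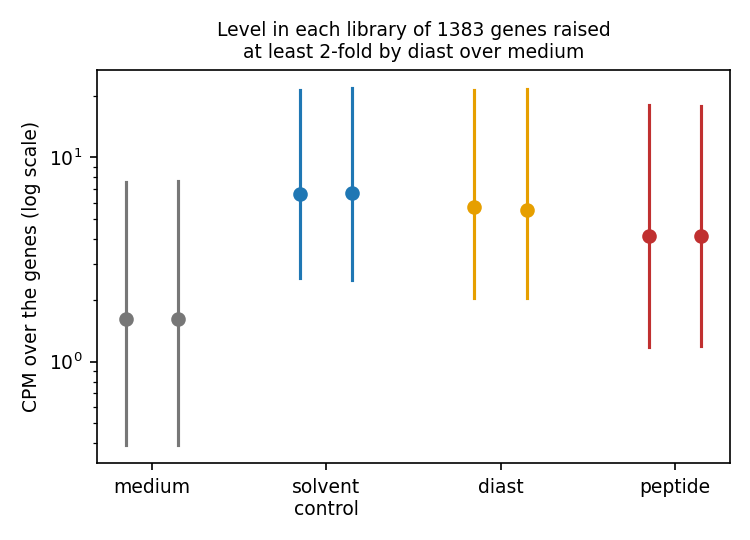
Level in each of the 8 libraries of the 1383 genes raised at least 2-fold by diast over medium, on a log scale. Points are the median over genes and lines the quartiles. Medium and diast libraries chose the genes. Of the libraries that did not, the peptide medians of 4.10 CPM lie below the solvent control medians of 6.60 and 6.68 CPM.

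The peptide and diast were compared at the same dilution and time, a single pair of compounds. Both are read against the same solvent control, so the direct contrast is the test of the difference between them. Of 15023 genes, 1286 (8.56%) were higher and 1380 (9.19%) lower with the peptide than with diast, and 34 (0.226%) and 267 (1.78%) of these by at least 2-fold (edgeR adjusted p under 0.05). The called genes were 17.7% of those tested in all. These numbers depend on single libraries. Without peptide replicate 1, 443 were higher and 594 lower, without diast replicate 1 it was 528 and 615, and without diast replicate 2 it was 650 and 654. The counts of at least 2-fold were 17 and 145, 16 and 154, and 31 and 168 in the same order, and 8 and 54 under the filter at a mean of 5 CPM. For the 4 genes given by identifier the peptide exceeded diast by 2.46-fold for ENSG00000204388.6 (95% interval on the log2 scale 1.14 to 1.46) and by 2.05-fold for ENSG00000109971.13 (0.91 to 1.16). It was below diast by 8.63-fold for ENSG00000162543.5 (-3.94 to -2.28) and by 11.6-fold for ENSG00000104833.11 (-4.17 to -2.90). The largest edgeR adjusted p of these 4 differences was 2.1e-05. These genes were chosen for their change against the solvent control, so their values against diast serve as a description.

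Genes raised by the solvent control metabolites tended to be lower with the peptide than with diast. Grouping by solvent control over medium, in a fit of those 4 libraries alone, leaves the peptide and diast libraries unused. Of 1756 genes raised at least 2-fold by the solvent control metabolites, 401 (22.8%) were lower and 17 (0.968%) higher with the peptide than with diast, beside 9.47% and 8.92% over the 14411 genes that passed on those libraries. By at least 2-fold it was 196 lower (11.2%, beside 1.75%) and 1 higher (0.0569%, beside 0.229%). The count of 196 was 108 without peptide replicate 1, 120 without diast replicate 1 and 129 without diast replicate 2, and 39 of 720 genes (5.42%, beside 0.511% of all) under the filter at a mean of 5 CPM. The count of 401 became 198, 206, 217 and 258 in the same order. The median log2 difference of these genes was -0.43, against -0.0040 for all 14411. Below 0 were 1418 of the 1756 (80.8%), beside 50.5% of all 14411. Among the 436 raised at least 8-fold, of which 403 were under 1 CPM in medium, 125 (28.7%) were lower by at least 2-fold, the median difference was -1.15 and 413 of 436 were below 0. The median level of those 436 genes was 1.08 and 1.03 CPM in diast and 0.434 and 0.477 CPM in the peptide group. In medium it was 0.0974 and 0.111 CPM, so most of the 436 passed the filter only through their level with the solvent control. So did part of the 1756, whose lower quartile in medium was 0.292 and 0.279 CPM. With genes of at least 1 CPM in medium alone, 3.69% of 759 raised 2- to 4-fold were lower by at least 2-fold. It was 11.7% of 145 raised 4- to 8-fold and 51.5% of 33 raised at least 8-fold. Of all genes at 1 to 3 CPM in medium, 3.97% were lower by at least 2-fold, and of those at 3 to 10 CPM, 1.43%. In each higher stratum of medium level that share was at most 0.368%. The 3155 genes lowered by less than 2-fold by the solvent control metabolites had a median of 0.06, with 15.9% higher and 7.00% lower with the peptide.

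Cells given metabolites of the peptide-treated community also differed from cells in medium. Against medium, 4246 genes (28.3% of 15023) were higher and 3683 (24.5%) lower in the peptide group. With at least a 2-fold difference, 1198 (7.97%) were higher and 689 (4.59%) lower, 12.6% together (edgeR adjusted p under 0.05), and 608 and 405 under the filter at a mean of 5 CPM. At the detection level of 1 CPM, 247 genes were present in both peptide libraries and neither medium library, and 134 the other way round. The root-mean-square log2 difference between a peptide and a medium library was 0.835 to 0.861, as against 0.76 to 0.791 between a peptide and a solvent control library. Between a solvent control and a medium library it was 1 to 1.02. With the solvent control, 1772 of 15023 genes were higher and 386 lower than in medium by at least 2-fold (edgeR adjusted p under 0.05).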

How the data were processed

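The deposited RNA-seq values are expected counts, not scaled between libraries, which the authors estimated for each gene with RSEM 1.2.31. That tool, fastp 0.24.0, STAR 2.5.1b and the build hg38 are named in the submitters' processing notes. The annotation is not given in the sources used here. Of the values, 8.06% were not whole, and all were rounded. The 58230 entries with Ensembl gene IDs were used. The 649 with numeric IDs, of which 22 held any count, and the 97 spike-in entries, all at 0, were left out. Reporter assay tables were not used here.

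One robust quasi-likelihood model (edgeR 4.0.16, R 4.3.3) covered all 8 libraries with TMM factors, after edgeR's default expression filter. P-values were adjusted by Benjamini-Hochberg over 15023 genes with a threshold of 0.05. The standard error was the absolute log2 difference over the root of F, and intervals are at 95%. Groups by response came from fits of the other 4 libraries alone. The model was tested on simulated data. Alternatives used DESeq2 1.42.0, other scalings, filters and library sets. Figures used Python 3.11.15 and matplotlib 3.10.9.

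The genes given by ID are the 2 largest rises and 2 largest falls among called genes with a mean of at least 5 CPM over the 4 libraries. The naming rule asked for a symbol and for lists by symbol, which could not be applied because no table used here pairs these IDs with symbols. The comparison, its groups of genes and the lists were chosen with earlier results of these data known.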

Additional observations from a re-analysis of the deposited data

How the results depend on the processing

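Against the solvent control and diast, the 4 genes given by identifier kept direction and call under all alternatives that tested them. Against medium, ENSG00000162543.5 lost its call with DESeq2 (log2 1.87) and without medium replicate 1 or peptide replicate 2 (0.76 and 1.52), and ENSG00000104833.11 without medium replicate 1 (1.94). The stricter filter (at least 1 CPM in both libraries of a group and a mean of at least 5 CPM) tested fewer genes. It gave 53 higher and 360 lower at least 2-fold against the solvent control, 8 and 54 against diast, 608 and 405 against medium, and 17 and 74 among genes raised by diast over medium. Among genes raised by the solvent control over medium it gave 258 lower than with diast, 39 of them at least 2-fold. DESeq2, RLE factors, library-size scaling, no filter, the 4-library fits and the replicate block moved no count over 1.5 times. Library-size scaling put the median of all genes at -0.041, with 2632 higher and 3351 lower against the solvent control. The replicate block gave 3338 higher and 3238 lower. Replicate differences correlated at 0.033 between the compared groups and from -0.034 to 0.069 over all group pairs, so the numbers were not taken as pairing.

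Leaving out 1 library assumes that the lone replicate varies like the other groups. Against the solvent control it gave 2169 to 2801 higher, 2130 to 2480 lower, 107 to 144 higher at least 2-fold and 737 to 877 lower at least 2-fold. Against diast it gave 443 to 1186, 594 to 1049, 16 to 31 and 145 to 244, and against medium 3332 to 3793, 3329 to 3715, 1056 to 1090 and 661 to 745. Among genes raised by diast over medium, it gave 21 to 30 higher and 278 to 316 lower at least 2-fold. Among genes raised by the solvent control over medium it gave 198 to 281 lower than with diast, 108 to 156 at least 2-fold. Both groupings were chosen after seeing the data. Low levels limit the calls, since 26920 genes had a count and 15023 were tested. Alternatives for lists by gene symbol were not run.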
